A study of Mus musculus with 34 samples.

Results

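The 10 genes described here encode the core of the SIN3 histone deacetylase complex, namely Sin3a, Sin3b, Hdac1, Hdac2, Sap18, Sap30, Sap130, Suds3, Rbbp4 and Rbbp7. They were chosen by name out of 21887 protein-coding genes, not by a measured value. A ChIP-seq peak was taken as a gene's own where that gene had the nearest protein-coding gene body within 50 kb (mouse build mm10). This gave 68 peaks at 39 distinct sites, and no other protein-coding gene body was as near to any of them. Genes of other types were left out of the rule, and at Rbbp7, Sap30 and Suds3 such a gene lay nearer to some of the peaks. The rule is one of distance alone and does not show that a gene is controlled from its peak.

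Beta-TC6 is a mouse insulin-producing β-cell line, and the study recovered from it the DNA bound by p65, PDX1 or SIN3A. p65 (RELA) is the NF-κB subunit that activates genes after cytokine signals, PDX1 is the homeodomain factor of pancreatic and β-cell identity, and SIN3A is itself the product of a gene described here. For p65 and for PDX1 there were 4 groups of 3 samples: WT (unmodified) control cells, WT cells given IL1B (the cytokine IL-1β), Bmal1-/- control cells, and Bmal1-/- cells given IL1B. Bmal1 encodes an activator of the circadian clock. SIN3A was recovered from WT cells given control siRNA or Pdx1 siRNA, with 2 samples in each group. Every group, controls included, had received a 1 h pulse of 10 µM forskolin, which sets the clocks of cultured cells to a common phase. With 6 input samples the series has 34. No source used here gives the dose or time of IL-1β, the number of Bmal1-/- clones or whether samples came from separate cultures. For PDX1 with IL1B the labels disagree, the antibody field naming p65 and the titles PDX1, and the titles decided.

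SIN3 proteins are scaffolds that bind no DNA themselves. Sequence-specific repressors recruit them, and they hold the class I deacetylases HDAC1 and HDAC2, which remove acetyl groups from histone tails and so dampen transcription. The SAP proteins and SDS3 (the product of Suds3) stabilise the assembly, and RBBP4 and RBBP7 are histone-binding proteins that it shares with the NuRD, Polycomb and chromatin assembly complexes. SIN3 is often found at active promoters as well, and mouse β-cells are known to need Sin3a for their survival and function.

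Each group is represented by 1 peak list with no value per sample, so no difference between groups could be set against replicate spread and none was tested. The lists held from 173 to 40028 peaks, from 53.5 to 63.9 M tags for p65 and PDX1, and 31.0 and 35.0 M for SIN3A. A peak's height is given as its tags per 10 M sequenced tags, counted in a window whose width differed between lists, from 206 to 479 bp. Heights of different lists are therefore set side by side only. Intervals on heights and on ratios of heights are exact 95% intervals and cover counting error only. In the list of PDX1 in WT control cells, 9 of 10 β-cell marker genes had a peak, Iapp being the exception, but so did 3 of 3 α-cell, 2 of 2 δ-cell and 3 of 4 exocrine marker genes. Peak lists hold no expression, so neither the cell type nor the loss of Bmal1 or Pdx1 could be checked in them.

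SIN3A itself was found at nearly every gene of its own complex. With control siRNA 9 of the 10 genes had a SIN3A peak, Hdac1 being the exception, and with Pdx1 siRNA 9 again, Sin3a being the exception. Over all protein-coding genes the share with a SIN3A peak was 48.1% and 50.5%. With IL1B, p65 had a peak at 8 of the 10 genes in WT cells and at 6 in Bmal1-/- cells, where 46.1% and 33.0% of all genes had one. These p65 counts and their order depended on the threshold. With peaks at least 8-fold over input they were 4 and 5 genes (33.5% and 23.0% of all genes), and with lists limited to equal length 1 and 2 genes (9.65% and 9.63%). Without IL1B no gene of the complex had a p65 peak in WT or in Bmal1-/- cells, but those lists reached only 9.01% and 0.676% of all genes. PDX1 had a peak at 5 of the 10 genes in WT control cells and at 7 with IL1B, beside 42.0% and 41.4% of all genes. In Bmal1-/- cells the PDX1 counts were 0 without and 1 with IL1B, and the shares of all genes 16.5% and 16.1%. Apart from both SIN3A lists, p65 with IL1B and PDX1 with IL1B in WT cells, the counts stood within 2 genes of those shares. At 8-fold over input the PDX1 count of WT cells with IL1B was 1, beside 27.8% of all genes, and with lists of equal length 1, beside 15.5%. The absence of a peak at a gene holds for the nearest-gene rule. When every gene within 50 kb of a peak was counted, p65 in WT cells with IL1B and SIN3A in both lists reached 10 of 10 genes, beside 73.8%, 68.6% and 70.3% of all. PDX1 then reached 9 genes in WT cells both without and with IL1B (69.7% and 68.3% of all). In Bmal1-/- cells with IL1B p65 reached 9 as well (59.3%).

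**Figure D1:**
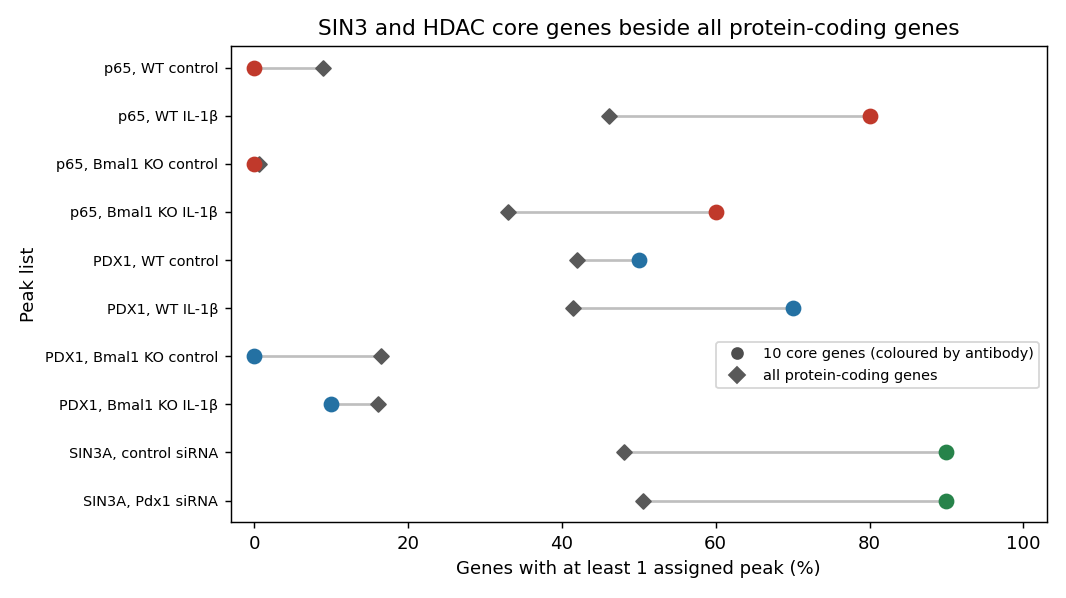
Percent of genes with at least 1 assigned peak in each of the 10 peak lists, for the 10 core genes (circles, coloured by antibody) and for all protein-coding genes (grey diamonds), with 1 list per group and no replicate error. The SIN3A circles stand at 90.0% in both lists beside diamonds at 48.1% and 50.5%, and the 2 p65 lists without IL1B and the PDX1 list of Bmal1-/- control cells have circles at 0.

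SIN3A lay mostly at gene ends, and p65 and PDX1 mostly away from them. Of the SIN3A peaks at these genes, 9 of 10 with control siRNA and 11 of 13 with Pdx1 siRNA were centred within 1 kb of a gene end, beside 69.1% and 66.7% of all assigned SIN3A peaks. The reference lists transcription starts for 8 of the genes. A SIN3A peak was centred within 1 kb of a start at 8 of 8 with control siRNA and at 7 of 8 with Pdx1 siRNA, where 46.6% and 48.6% of 17492 genes had such a peak. For p65 in WT cells with IL1B, 1 of 13 peaks was centred within 1 kb of a gene end, beside 13.0% of all assigned peaks, and for PDX1 with IL1B 1 of 12, beside 4.64%. By listed start, p65 of these cells had a peak within 1 kb at 2 of 8 genes (Sin3a and Suds3), beside 15.5% of genes. PDX1 of these cells had one at 1 of 8 (Sap30), beside 4.93%. SIN3A peaks at the complex genes had a median of 32.1 tags with control siRNA and 30.0 with Pdx1 siRNA, and all assigned SIN3A peaks 20.3 and 22.3. The p65 peaks of WT cells with IL1B had a median of 13.4 tags here and 10.6 over all assigned peaks. The corresponding PDX1 medians were 8.73 here and 9.88 over all.

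**Figure D2:**
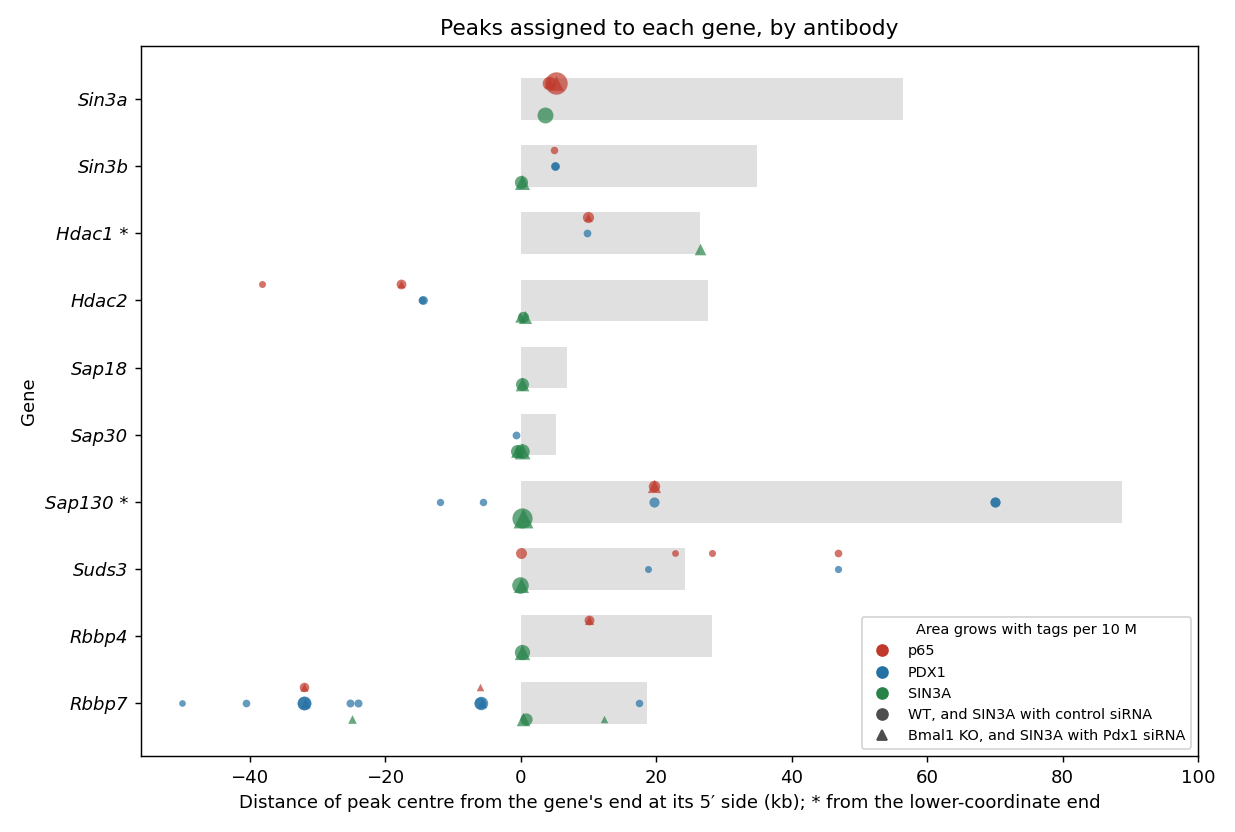
Distance in kb of every assigned peak's centre from the gene's 5′ end, with grey bars for the gene bodies, colours for antibodies and marker area growing with tags per 10 M (for Hdac1 and Sap130, marked with an asterisk, distances run from the lower-coordinate end). SIN3A markers (green) cluster at the 5′ ends, at Hdac1 at the far end of the bar and at Sin3a inside the gene, while p65 (red) and PDX1 (blue) lie mostly inside or outside the genes away from that end.

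Sin3a encodes the scaffold that the SIN3A antibody recognises, and its gene carried the highest p65 peak of the complex. It spans chr9:57071991-57128368, with a listed start at 57072040 and another downstream at 57076376. In WT cells with IL1B the higher p65 peak (chr9:57077074-57077280) had 91.0 tags (83.1 to 99.4), was 30.4-fold over input and ranked 857 of 31389. The same site had 36.2 tags (31.4 to 41.5) in Bmal1-/- cells with IL1B and ranked 1141 of 16162. A lower p65 peak (chr9:57076024-57076230) had 30.4 tags in WT and 12.7 tags in Bmal1-/- cells, where it was 4.04-fold over the surrounding region and the authors' limit 4-fold. All 4 p65 values come from IL1B lists, and neither control list had a peak there. The higher site was centred at +801 bp from the downstream start in WT cells, and the lower one at -249 bp, both inside the gene.

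The 250 bases before each start of Sin3a are shown because the lower p65 peak covers much of one of these windows and none of the other. Sequences are from the RefSeq promoter table (GRCm38.p6, the assembly of mm10), 5′ to 3′ on the gene's strand, and capitals mark motif matches on either strand.
Sin3a, downstream start, chr9:57076126-57076375, plus strand: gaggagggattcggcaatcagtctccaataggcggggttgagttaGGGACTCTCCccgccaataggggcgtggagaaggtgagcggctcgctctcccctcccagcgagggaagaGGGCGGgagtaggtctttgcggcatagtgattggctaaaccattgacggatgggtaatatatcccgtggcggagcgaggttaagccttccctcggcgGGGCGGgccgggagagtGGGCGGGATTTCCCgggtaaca
Sin3a, upstream start, chr9:57071790-57072039, plus strand: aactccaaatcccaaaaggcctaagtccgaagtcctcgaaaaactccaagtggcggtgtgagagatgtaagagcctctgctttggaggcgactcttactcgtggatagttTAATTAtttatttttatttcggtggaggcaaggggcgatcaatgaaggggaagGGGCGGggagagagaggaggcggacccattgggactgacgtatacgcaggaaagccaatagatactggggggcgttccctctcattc

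In the downstream window the capitals are 2 matches to the NF-κB consensus and 3 GC boxes (GGGCGG). In the run nearest the start a GC box and an NF-κB match overlap. Positions count back from the base before the start, -1. An NF-κB match lies at -205 to -196, under the lower p65 peak, which covers 105 bases of this window in WT and 136 in Bmal1-/- cells. The other lies at -18 to -9, outside both peaks. No other window of the complex held a match, and 3.9% of the 32851 promoter windows listed by RefSeq did. In the upstream window the capitals are a TAATTA, the core of homeodomain sites such as that of PDX1, and a GC box. TAATTA occurred in 4.84% of all windows and at no other gene of the complex, and no PDX1 peak in any list had Sin3a as its nearest gene. All PDX1 lists but that of Bmal1-/- control cells had a peak within 50 kb of Sin3a that lay nearer to another gene. A match of letters is a description and not a binding site.

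SIN3A at its own gene appeared in 1 of 2 lists. With control siRNA the peak (chr9:57075419-57075643, centred at -845 bp from the downstream start) had 43.5 tags (36.5 to 51.5), ranked 1036 of 13109 and was 35.62-fold over input. With Pdx1 siRNA the nearest SIN3A peak was 55175 bp away. Of the 1059 control-siRNA peaks at least as high, 5 had no peak within 500 bp in the Pdx1-siRNA list. The others were at Paics (63.1 tags), a purine synthesis enzyme, Cog5 (52.2), a Golgi subunit, Ing2 (45.4), a SIN3-associated reader of histone methylation, and Smarca2 (45.1), a SWI/SNF ATPase. The Sin3a peak was 4.10-fold over its surrounding 10 kb, the lowest of the 23 SIN3A peaks of the complex genes, and the authors' limit was 4-fold. A peak just under that limit is not listed. Of all control-siRNA peaks under 4.5-fold over the local region, 41.0% had no Pdx1-siRNA peak within 500 bp, against 4.13% of those at 10-fold or more. Among the peaks at least as high as that of Sin3a, only 3 were under 4.5-fold, and 2 of these had none. The lists give no height where no peak was called, and the part of the local limit in the absence at Sin3a was not tested.

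Sin3b encodes the paralogous scaffold, and SIN3A lay at its start in both lists. The peak had 28.3 tags with control siRNA, centred at +120 bp from the start (chr8:72723278-72723502), and 38.0 tags with Pdx1 siRNA at +144 bp. About 5 kb into the gene a weak site was shared by p65 and PDX1. There PDX1 had 6.81 tags in WT control cells and 10.2 with IL1B, and p65 had 5.79 with IL1B. None of the Bmal1-/- lists had a peak at Sin3b. The window before its start held 1 GC box and none of the other motifs.

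Hdac1 encodes 1 of the 2 catalytic deacetylases (gene at chr4:129516104-129542646). A site inside the gene (chr4:129525945-129526151 in the WT list) carried p65 with IL1B, at 18.9 tags in WT and 7.59 in Bmal1-/- cells. PDX1 was found at that site only in the WT list with IL1B, at 6.48 tags, 4.87-fold over input. SIN3A had no peak at Hdac1 with control siRNA and 1 with Pdx1 siRNA (chr4:129542409-129542617, at the upper end of the gene) with 20.9 tags, 5.98-fold over input. Of the 7781 Pdx1-siRNA peaks at least as high, 95.2% had a control-siRNA peak within 500 bp and 377 had none, so Hdac1 was one of many such peaks.

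Hdac2 encodes the other catalytic deacetylase (chr10:36974297-37001889), and its p65 and PDX1 peaks all lay outside the gene. A p65 peak 17567 bp from the gene had 13.4 tags in WT cells with IL1B and 5.30 in Bmal1-/- cells with IL1B, and another at 38110 bp had 4.30 tags in WT cells alone. PDX1 had a separate site between the nearer of these and the gene, with 7.15 tags in WT control cells and 10.0 with IL1B. SIN3A was found on either side of the start. With control siRNA 1 peak at +62 bp had 19.3 tags, and with Pdx1 siRNA a peak at -397 bp had 15.7 and another at +415 bp had 27.7. These SIN3A windows do not overlap, and the smallest gap between the lists is 137 bp, so the gene counts as shared if peaks within 500 bp are accepted and not under an overlap of 1 bp.

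The window before the Hdac2 start and that before the Suds3 start are shown because a SIN3A peak covers part of each.
Hdac2, chr10:36974294-36974543, plus strand: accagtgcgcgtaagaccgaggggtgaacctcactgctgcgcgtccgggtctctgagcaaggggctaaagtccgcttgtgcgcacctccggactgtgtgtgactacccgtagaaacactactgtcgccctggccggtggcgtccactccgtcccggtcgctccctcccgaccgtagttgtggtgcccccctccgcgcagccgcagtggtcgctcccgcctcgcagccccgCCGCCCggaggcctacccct
Suds3, chr5:117115994-117116243, minus strand: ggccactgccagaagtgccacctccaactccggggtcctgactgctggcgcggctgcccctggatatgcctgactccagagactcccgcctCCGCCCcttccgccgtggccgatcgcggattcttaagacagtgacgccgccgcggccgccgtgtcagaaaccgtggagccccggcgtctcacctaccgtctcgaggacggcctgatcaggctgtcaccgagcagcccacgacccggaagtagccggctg

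In both the capitals are a GC box read on the opposite strand, and there is no NF-κB, TAATTA or E-box (CACGTG, the site of BMAL1 and its partner) match. At Hdac2 the control-siRNA SIN3A peak covered 50 bases. At Suds3 SIN3A covered 141 bases with control siRNA and 50 with Pdx1 siRNA, and p65 covered 80. GC content was 68.8% at Hdac2 and 68.4% at Suds3, where the median of all windows was 52.4%. A GC box stood in 8 of the 9 windows of the complex, the one before Sap18 lacking it, and in 32.7% of all windows. The only E-box lay before Rbbp4, at -224 to -219, where 6.02% of all windows held one. The NRF1 consensus, common in promoters of widely expressed genes, was in none of the 9 windows and in 0.998% of all.

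The small adaptor genes Sap18 and Sap30 were the ones without an assigned p65 peak, although in WT cells with IL1B each had one within 50 kb that lay nearer to another gene. Sap18, whose product also takes part in RNA splicing assemblies, had SIN3A at +165 bp with 27.4 tags (control siRNA) and at +172 bp with 30.9 tags (Pdx1 siRNA), and no peak in any of the other 8 lists. Sap30, which bridges SIN3 to its deacetylases, had SIN3A on both sides of its start. The inner peak had 35.8 tags with control siRNA and 42.9 with Pdx1 siRNA, and the outer one, at -513 and -481 bp, had 27.7 and 26.3. A weak PDX1 peak, 6.80 tags in WT cells with IL1B, overlapped the outer site. It is the one site of the complex with both PDX1 and SIN3A. A gene that is not protein-coding lay nearer to that PDX1 peak.

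Sap130, a subunit that supports assembly of the complex, carried its highest SIN3A peaks. With control siRNA the peak (chr18:31634531-31634755, inside the gene beside its lower-coordinate end) had 72.8 tags (63.6 to 82.9) and ranked 148 of 13109. With Pdx1 siRNA it had 70.3 tags (61.8 to 79.7) and ranked 296 of 14653. A site inside the gene (chr18:31654009-31654215) had 20.0 p65 tags in WT and 28.1 in Bmal1-/- cells with IL1B. In WT cells PDX1 lay on that site with IL1B only (14.7 tags) and on a site further in without and with IL1B (14.3 and 14.4 tags). Weak PDX1 peaks of WT cells outside the gene, 5.32 tags without and 5.83 with IL1B, were at different positions. Neither Bmal1-/- list of PDX1 had a peak at Sap130. Of the p65 sites found in both genotypes, that of Sap130 is the only one of the complex with the larger value in the Bmal1-/- list.

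Suds3, encoding the SDS3 subunit that supports deacetylase activity, had the one site where p65 and SIN3A overlapped. At its start SIN3A had 47.7 tags (40.3 to 56.0) with control siRNA, centred at -29 bp, and 38.3 tags (32.1 to 45.4) with Pdx1 siRNA, at +54 bp. The p65 peak there (chr5:117115867-117116073, +23 bp) had 18.1 tags in WT cells with IL1B but was only 4.19-fold over input, next to the 4-fold limit. Of the WT p65 peaks at least as high, 85.5% overlapped a Bmal1-/- peak, and this one did not. The other p65 peaks of Suds3 were weak, at 6.35, 4.48 and 3.92 tags, and so were its PDX1 peaks, at 5.15 tags without and 4.37 with IL1B, all in WT cells. The PDX1 peak without IL1B overlapped the p65 peak of 6.35 tags, 22409 bp from the gene. A gene that is not protein-coding lay nearer to that PDX1 peak.

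Rbbp4, a histone chaperone gene, had 1 p65 site and 1 SIN3A site. The p65 peak lay 10132 bp into the gene, with 13.4 tags in WT and 10.6 in Bmal1-/- cells with IL1B. SIN3A at the start had 39.6 tags with control siRNA and 39.5 with Pdx1 siRNA. That peak is 242 bp from the gene Zbtb8os in the control-siRNA list, so the start region is shared with a neighbour. No PDX1 peak in any list had Rbbp4 as its nearest gene, but all 4 PDX1 lists had a peak within 50 kb of it that lay nearer to another gene.

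Rbbp7, its X-linked paralogue (chrX:162760372-162779090), was the gene of the complex with most PDX1 peaks and the only one with a PDX1 peak in Bmal1-/- cells. With genes of any type allowed, Rbbp7 was no longer nearest to its p65 peaks, or to its PDX1 peaks of WT cells with IL1B. It then kept a PDX1 peak in WT control cells and in Bmal1-/- cells with IL1B. The PDX1 peaks of Bmal1-/- cells with IL1B overlapped peaks of WT cells with IL1B, but windows were 418 and 226 bp. The part of window width in which gene lay nearest was not tested. About 32 kb before the gene a site (chrX:162728322-162728528) had 29.9 PDX1 tags in WT control cells, 31.7 with IL1B and 13.5 in Bmal1-/- cells with IL1B. p65 lay on it with 12.5 tags in WT and 7.59 in Bmal1-/- cells with IL1B. A site about 6 kb before the gene had 23.9, 29.6 and 11 PDX1 tags in the same order, with p65 only in the Bmal1-/- list (6.0 tags). Neither had a PDX1 peak in Bmal1-/- control cells. Of the WT control PDX1 peaks with at least 29.9 tags 83.7% overlapped one there, and of those with at least 23.9 tags 75.1% did. The remaining PDX1 peaks of Rbbp7 had 3.49 to 7.45 tags. SIN3A had 23.8 tags at +779 bp with control siRNA. With Pdx1 siRNA it had 30.0 tags at +326 bp, 237 bp from the former, and weak peaks of 9.15 and 5.72 tags elsewhere.

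**Figure D3:**
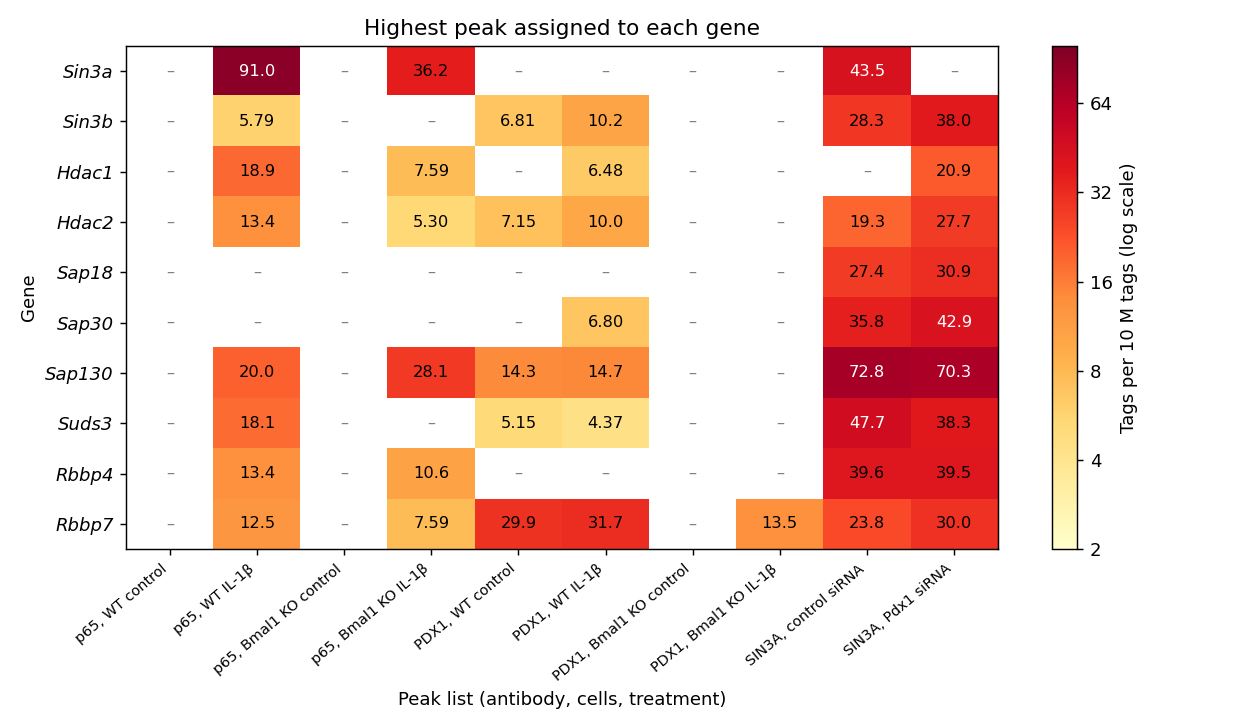
Height, in tags per 10 M sequenced tags, of the highest peak assigned to each gene (rows) in each peak list (columns), with a log colour scale and a dash where the list has none. Sin3a has the highest p65 value (91.0) and Sap130 the highest SIN3A values (72.8 and 70.3), Rbbp7 leads for PDX1, and Sap18 is filled in the SIN3A columns only.

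Loss of Bmal1 was compared for p65 with IL1B. Of the 8 genes with a p65 peak in WT cells, 6 had an overlapping peak in Bmal1-/- cells, all but Sin3b and Suds3, and 60.5% of all genes with a WT peak did. At the 7 shared peaks the Bmal1-/- over WT ratio of heights was 0.398 and 0.418 at Sin3a, 0.402 at Hdac1, 0.396 at Hdac2, 0.607 at Rbbp7, 0.791 at Rbbp4 and 1.41 at Sap130. Their median was 0.418, and that of all 12781 shared p65 peaks 0.518 (quartiles 0.403 and 0.678). Heights here come from windows of 206 bp in WT and 231 bp in Bmal1-/- cells, so the ratios are read against that median only. The Sap130 ratio (1.09 to 1.81) is in the upper tail, with 98.6% of all shared peaks at or below it. Rbbp4, at 0.791 (0.550 to 1.13), had 84.4% at or below it, and the ratios at both Sin3a peaks, Hdac1 and Hdac2 stood between the 23.6 and 28.2 percentiles.

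PDX1 gave few shared sites between genotypes. Without IL1B 0 of 5 genes with a WT peak overlapped a Bmal1-/- peak, and with IL1B 1 of 7 did, at Rbbp7. Among all genes with a WT PDX1 peak the shares were 36.4% and 35.7%. The Rbbp7 ratios, Bmal1-/- over WT with IL1B, were 0.426 (0.325 to 0.549) and 0.372 (0.277 to 0.489), where all 7280 shared peaks had a median of 0.576. Windows were 226 bp in the WT and 418 bp in the Bmal1-/- list. At the other genes no WT PDX1 peak exceeded 14.7 tags per 10 M. The lowest height that could be called was 5.54 tags per 10 M in the Bmal1-/- list without IL1B and 5.01 with it, against 3.32 and 3.56 in WT cells. These heights were counted in windows of 472 and 418 bp in Bmal1-/- and 207 and 226 bp in WT cells. Some WT peaks without a Bmal1-/- peak were lower than the Bmal1-/- values and others higher. Of WT peaks at least as high as the highest of Sap130 (14.3 tags without and 14.7 with IL1B), 53.4% and 47.5% overlapped a Bmal1-/- peak. The part of these thresholds in the missing peaks was not tested.

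IL-1β was compared within WT cells for PDX1. Of 5 genes with a control peak 4 had an overlapping one with IL1B, all but Suds3, beside 74.6% of all such genes. The ratios, IL1B over control, were 1.5 (0.995 to 2.28) at Sin3b, 1.40 (0.937 to 2.12) at Hdac2, 1.24 and 1.06 at Rbbp7 and 1.01 at Sap130. The interval of each includes the median of all 24051 shared peaks, 1.09. Windows were 207 bp in the control list and 226 bp in the IL1B list. Hdac1 and Sap30 had PDX1 only with IL1B, both under 7 tags. For p65 no comparison of IL1B with control is possible at these genes, since no peak was listed without it.

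Pdx1 siRNA was compared for SIN3A. Of 9 genes with a control-siRNA peak 6 had an overlapping one, all but Sin3a, Hdac2 and Rbbp7, beside 82.9% of all such genes. At Hdac2 and Rbbp7 the peaks of the lists were 137 and 237 bp apart, and at Sin3a none was near. The ratio of heights, Pdx1 siRNA over control siRNA, was 1.34 (1.02 to 1.78) at Sin3b, 1.2 and 0.949 at Sap30, 1.13 at Sap18, 0.997 at Rbbp4, 0.966 at Sap130 and 0.803 (0.631 to 1.02) at Suds3. The median over these 7 peaks was 0.997 and that of all 9632 shared SIN3A peaks 1.15 (quartiles 1.01 and 1.31). At Suds3 3.85% of all shared peaks had a ratio as low. Windows were 225 and 208 bp, so a ratio near 1 is no sign of equal occupancy.

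**Figure D4:**
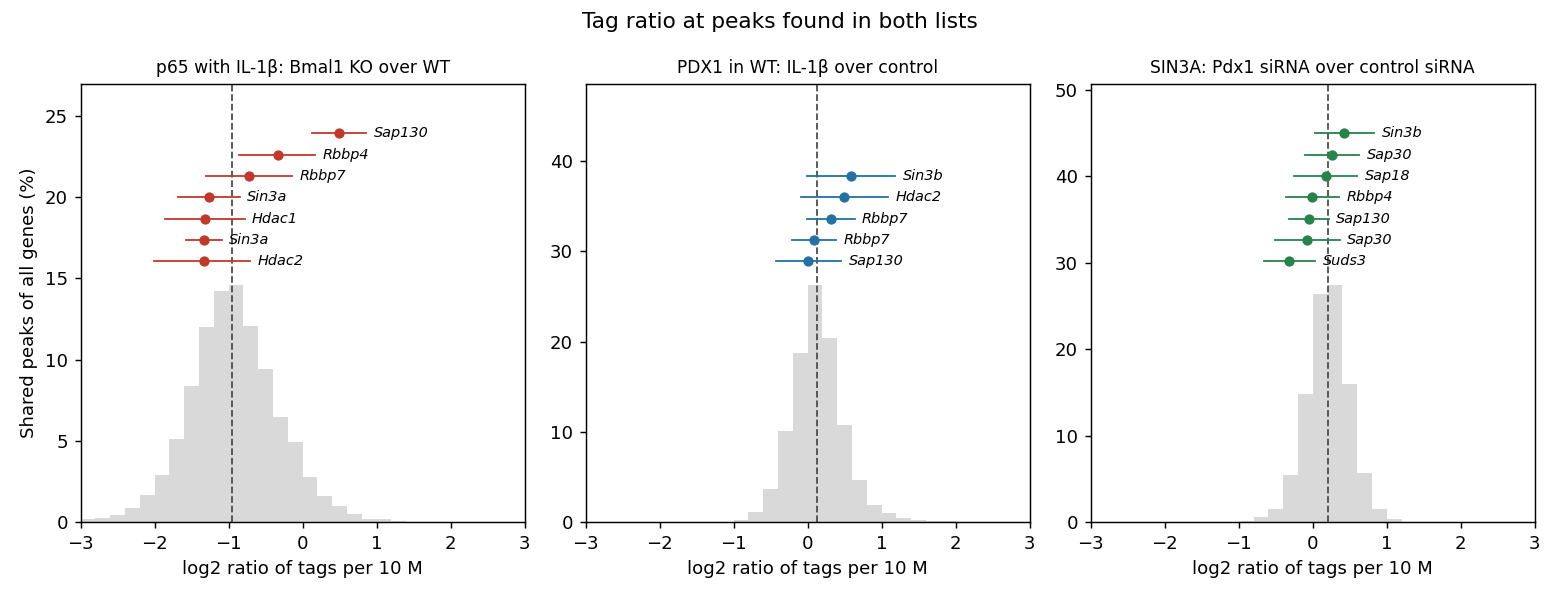
Log2 ratio of tags per 10 M at peaks found in both lists, with grey histograms (percent of shared peaks of all genes), a dashed line at their median and points with 95% counting intervals for peaks of the complex genes, stacked in order of the ratio. In the p65 panel Sap130 stands at 0.49 on the log2 scale, right of the other 6 peaks, and in the SIN3A panel Suds3 is lowest at -0.32.

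Between antibodies, p65 and PDX1 shared a site at 4 of 8 genes in WT cells with IL1B (Sin3b, Hdac1, Sap130 and Rbbp7), beside 43.8% of all genes with a p65 peak, and at 1 of 6 in Bmal1-/- cells with IL1B (Rbbp7), beside 26.5%. In WT cells PDX1 had the larger tag count at Rbbp7 and Sin3b, and p65 at Hdac1 and Sap130. p65 with IL1B overlapped control-siRNA SIN3A at 1 of 8 genes (Suds3), where 15.4% of all genes did, and PDX1 of WT control cells at 0 of 5, where 8.36% did. The 39 sites join overlapping peaks of all lists, whatever their condition. Of these sites 14 had SIN3A alone, 10 PDX1 alone, 7 p65 alone, 6 PDX1 and p65, 1 PDX1 and SIN3A and 1 p65 and SIN3A. The PDX1 and p65 site of Suds3 had p65 only with IL1B and PDX1 only without it. SIN3A peaks close together without overlap, as at Hdac2 and Rbbp7, count as separate sites. No site had all 3.

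Partner genes outside the core showed SIN3A widely too. A SIN3A peak with control siRNA was at 13 of 14 SIN3-associated genes (all but Sap25), 10 of 10 NuRD genes, 7 of 7 CoREST genes, 5 of 6 NCoR genes, 6 of 8 other deacetylases and 7 of 7 partners of RBBP4 and RBBP7. The share over all genes was, as above, 48.1%, so the core genes are not set apart from these partners by having one. The highest peaks within single partner lists included those at Foxk1 (120.5 tags, 33762 bp from this forkhead repressor gene) and Gatad2a of NuRD (69.2). Those at Ezh1 of Polycomb (45.4), Rcor3 of CoREST (26.1) and Hdac4 (21.6) were also highest in theirs. Of the core only Sap130, at 72.8 tags, exceeded Gatad2a.

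For p65 in WT cells with IL1B the counts were 10 of 14 SIN3-associated, 9 of 10 NuRD, 5 of 7 CoREST, 4 of 6 NCoR, 7 of 8 other deacetylase and 4 of 7 partner genes, where 46.1% of all genes had a peak. Highest within their partner lists were the peaks at Tbl1x of NCoR (83.7 tags), the NuRD remodeller Chd4 (76.8) and Jarid2 of Polycomb (43.9). Those at Ing2 (29.7), Phf21a of CoREST (28.0) and the tubulin deacetylase gene Hdac6 (18.3) were also highest in theirs. The Sin3a peak of 91.0 tags was above each of them. For PDX1 in WT control cells the counts were 5 of 14, 7 of 10, 5 of 7, 4 of 6, 5 of 8 and 4 of 7 in the same order, beside 42.0% of all genes. The highest peaks within single partner lists included those at Arid4b, a SIN3-associated chromatin reader (45.4), and Mbd2, the methyl-DNA binder of NuRD (34.7). Those at Hdac4 (32.1), Rcor3 (26.3) and Chaf1a of chromatin assembly (20.8) were also highest in theirs. Rbbp7, at 29.9 tags, is the one core gene in that range.

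Genes were last grouped by whether each of the 10 lists held a peak. Sin3b and Suds3 had the same pattern, found in 473 protein-coding genes, and so did Hdac2 and Sap130, found in 811. Sin3b and Suds3 shared theirs with Mta3, Rcor1, Kdm1a, Ncor1 and Hdac11. Hdac2 and Sap130 shared theirs with Ing2, Kdm5b, Mta2, Gatad2a and Tbl1xr1. The pattern of Sap18, SIN3A alone, was the commonest of the patterns of these 10 genes, with 1980 genes, among them Brms1, Brms1l, Sap30l, Cdk2ap1, Rcor2, Hmg20b and Hdac10. Rbbp4 had its pattern in common with Ing1, Chd3, Mbd3, Hdac6 and Chaf1b among 680 genes, Rbbp7 with Foxk1 among 246, and Sap30 with Hdac3 among 250. The patterns of Sin3a (56 genes) and Hdac1 (32 genes), which each lack 1 of the 2 SIN3A peaks, had no other gene of the complex or of the partner lists.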

How the data were processed

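The lists are the authors' HOMER peak calls, 1 per group, per the file headers (false discovery rate 0.001, at least 4-fold over input and over the local 10 kb). Bowtie2 and mm10 are named in the submitters' processing notes. No source used here says whether replicates were pooled. Peak height is a signal that the authors scaled to 10 M tags, per the file headers. All values under 10 lay within 0.01 tags per 10 M of the height that a whole number of tags gives. The ratios over input and over the local region are the authors' fold changes, as deposited. Nearest genes, overlaps of at least 1 bp, exact intervals (SciPy 1.17.1), ratios and motif matches were computed in Python 3.11.15 and tested on simulated data. Ratios of SIN3A heights were planned for equal windows, which the lists do not have, and are described beside the median of all shared peaks. The genes, lists and motifs were chosen with earlier results of these data known. All 10 genes are described, and of 6 lists with 52 partner genes the one with the highest peak is named for each antibody, except for an item that is not reported here. Promoter windows were found for 8 of the 10 genes. Alternatives are in the closing section.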

Additional observations from a re-analysis of the deposited data

How the results depend on the processing

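Alternatives were fixed with earlier results of these data known, and of the recomputed counts and ratios 87 stayed within 1.5 times (for the ratio, within the spread over the genes) and 22 did not. The 87 include counts of 0 that a smaller set of peaks could not change. They also include lists already no longer than the limit of equal length, which that alternative left as they were. The tally is therefore no measure of how stable the results are. Shares of all genes under the same alternative stand in brackets. For p65 with IL1B the WT count of 8 genes was 4 at 8-fold over input (33.5%), 1 with lists of equal length, the 3157 highest peaks (9.65%), and 2 of 8 genes with a peak within 1 kb of a start (15.5%). The Bmal1-/- count of 6 was 2 with equal lengths (9.63%) and 1 near a start (11.8%), so the order of the genotypes turned with equal lengths and also at 8-fold, where the Bmal1-/- count was 5 (23.0%). For PDX1 in WT control cells the count of 5 was 3 within 10 kb (36.8%), 9 when every gene within 50 kb was counted (69.7%), 1 with equal lengths, 8095 peaks (15.0%), and 0 near a start (5.97%). With IL1B the count of 7 was 1 at 8-fold (27.8%), 1 with equal lengths (15.5%) and 1 near a start (4.93%). In Bmal1-/- cells the PDX1 count of 0 without IL1B was 1 with every gene, at Rbbp4 (29.0%), and the count of 1 with IL1B was 3 with every gene, at Rbbp4, Rbbp7 and Sin3a (28.8%), 0 at 8-fold (7.0%) and 0 near a start (0.8%). At 8-fold in both lists, genes sharing a PDX1 peak between WT control and IL1B were 1 in place of 4 (55.1%) and between WT and Bmal1-/- with IL1B 0 in place of 1 (19.5%). Those sharing p65 with PDX1 were 0 in place of 4 in WT (28.0%) and 0 in place of 1 in Bmal1-/- cells (14.2%), and those sharing p65 with SIN3A 0 in place of 1 (5.77%), or 2 with peaks within 500 bp (28.9%). The SIN3A counts and ratios stayed within the limits above under the alternatives run, but these limits are wide. The median ratio over 6 genes, each with its highest shared peak, was 1.06, and 0.920 once divided by the median of all shared peaks. Taking the nearest gene of any type changed no count by more than 1.5 times, but removed peaks of Rbbp7, Sap30 and Suds3. The cause of these shifts was not tested beyond the smaller or larger set of peaks each alternative takes. No paired analysis was possible because each group has 1 list with no value per sample, and for the same reason leaving out a replicate was not run. Depth limits the weak sites, since in the p65 and PDX1 lists a peak of 5 tags per 10 M rests on about 30 tags.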
